A study of Mus musculus with 4 samples.

Results

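The set described here holds 10 interferon-stimulated genes, the antiviral effectors Ifit1, Ifit2, Ifit3, Ifit3b, Mx1, Mx2, Rsad2, Cmpk2, Ifi44 and Rtp4. Members were taken as the rows of the deposited gene table that carry these symbols, and 9 of the 10 had a row among the 22063 genes of the table. No row was used for Mx2, which is not analysed here. The set was put together with the difference between shUSP9X and shCtrl in these same libraries in view, so the values of its members are given as a description and no test is attached to them.

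The study examined how the deubiquitinase USP9X acts in ovarian cancer, and these libraries compared control cells with USP9X-knockdown cells. All 4 libraries were poly(A)-selected RNA from ID8, a mouse ovarian cancer cell line derived from the ovarian surface epithelium of C57BL/6 mice. The shCtrl group, whose genotype is labelled WT, held 2 libraries, and the shUSP9X group held 2 libraries of USP9X-knockdown cells. The shRNAs of the study were delivered by lentivirus from a puromycin-selectable vector. The labels do not say whether both shUSP9X libraries carried the same hairpin, whether the libraries of a group came from separate cultures, or whether any ligand or low oxygen was applied, so the spread between libraries may be technical. The libraries summed to 17232006 and 15611363 estimated counts in shCtrl, and to 19978889 and 17021261 in shUSP9X.

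Interferons bind receptors at the cell surface, and the receptor-bound JAK kinases then activate STAT proteins, which join IRF9 and bind interferon-stimulated response elements (ISREs) in promoters. The effector genes so induced act on viruses at different steps: IFIT proteins bind viral RNA and curb its translation, Mx proteins are dynamin-like GTPases that trap viral nucleocapsids, and RSAD2 (viperin) turns CTP into a chain-terminating nucleotide. Several of them are used as a readout of interferon signalling in tumour cells because they are scarce at rest and respond steeply.

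Usp9x, the targeted gene (ENSMUSG00000031010, chrX:13071498-13173328 of GRCm38, plus strand), had 5169 and 4453 counts in the shCtrl libraries and 390 and 346 in the shUSP9X libraries. Its mean fell from 289.8 ± 11.6 CPM (counts scaled to library size) to 20.1 ± 0.570 (SD, n = 2 libraries each), or by 3.85 on the log2 scale (edgeR quasi-likelihood test, adjusted p = 4.66e-26). The groups did not overlap, and both shUSP9X libraries went with their label.

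Cell identity markers were read next. Of 11 ovarian epithelial and mesothelial markers, the summed level was 4409 and 4489 CPM in shCtrl and 5404 and 5298 CPM in shUSP9X, with Vim as the most abundant. In edgeR 4 of the 9 tested were higher and 3 lower (adjusted p under 0.05), beside 33.8% and 33.6% of all genes tested: Krt8, Krt18, Vim and Krt19 rose by 0.92, 0.64, 0.39 and 0.12 on the log2 scale, and the mesothelial markers Wt1 and Msln and the cadherin Cdh2 fell by 0.52, 0.47 and 0.50. Another mesothelial marker, Upk3b, stood at 0.05 (adjusted p = 0.342). Epcam had at most 6 counts and Krt7 at most 3 in any library. Of 16 immune cell markers, 6 were at 0 in all 4 libraries, C1qa, C1qb, Cd3e, Nkg7, Siglech and Flt3. Their summed level was 4.38 and 4.62 CPM in shCtrl, where 13 of the 16 were at 0 in each library, and 17.7 and 17.8 CPM in shUSP9X. Cd68 was the most abundant of them, at 74 and 68 counts in the control pair and 118 and 85 in the knockdown pair. Only 6 of the 16 were tested, and 5 of these passed the filter on low counts through the shUSP9X libraries alone. Counts of these 5 are therefore given as a description, with no test attached. Itgam was at 0 in both shCtrl libraries and at 72 and 75 counts in shUSP9X, and Adgre1 went from 0 and 0 to 58 and 59. Ptprc went from 0 and 0 to 29 and 18, Csf1r from 0 and 0 to 17 and 13, and Cd74 from 1 and 4 to 49 and 45. Lyz2, abundant in macrophages, had 0 counts in 3 libraries and 2 in the other. These markers moved with the same group as the effectors below, and their part in those values was not tested. In bulk RNA a change in how many cells express a gene cannot be told apart from a change in RNA per cell.

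Across the table, 11448 genes passed the filter on low counts. Of these, 33.8% were higher and 33.6% lower in shUSP9X (edgeR, adjusted p under 0.05). Both shUSP9X libraries lay above both shCtrl libraries in CPM in 41.2% of the genes and below them in 41.0%. All 9 members with a row passed the filter, Ifit3, Ifit3b and Mx1 through the shUSP9X libraries alone. In 8 of the 9 both shUSP9X libraries were above both shCtrl libraries, and in Ifit2 both were below. The summed level of the 9 members was 31.5 and 31.8 CPM in shCtrl and 114.8 and 119.2 CPM in shUSP9X. These counts restate how the set was chosen, and nothing is read from them against the shares over all genes.

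**Figure D1:**
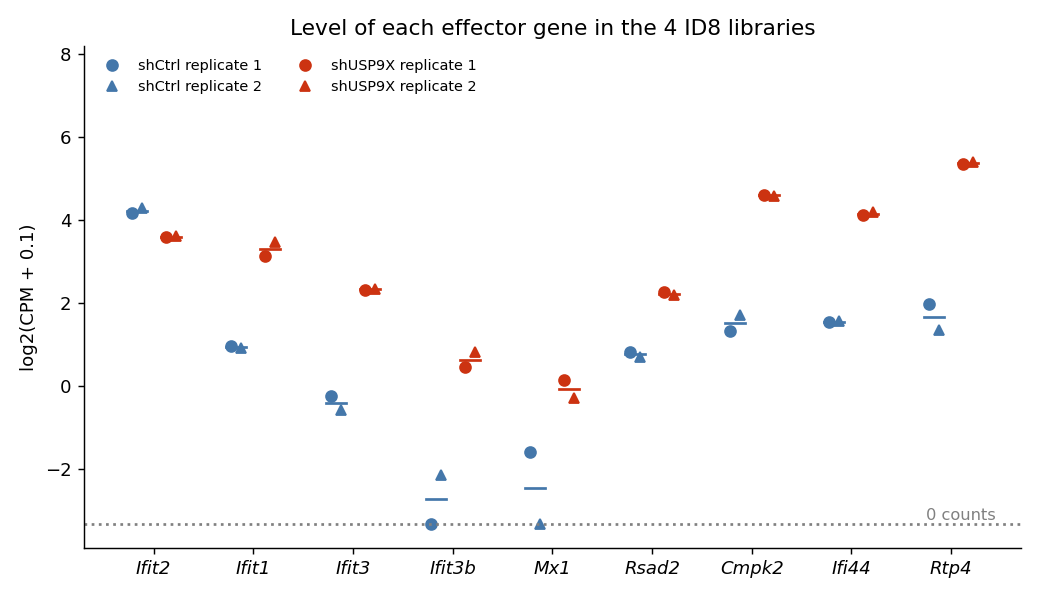
Level of the 9 effector genes in each ID8 library, as log2(CPM + 0.1) on the vertical axis, with circles for replicate 1, triangles for replicate 2 and short lines for the group means. The shUSP9X points lie above the shCtrl points for 8 genes and below them for Ifit2, and the dotted line marks 0 counts, reached in 1 shCtrl library each by Ifit3b and Mx1.

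The sequences upstream of the members are shown first, because 4 members share an ISRE match near the start and 3, Cmpk2, Ifi44 and Ifit2, hold none there. Promoter windows (RefSeq, GRCm38.p6, 250 bases before to 50 bases after each annotated start) were held for 7 members: Ifit1, Ifit2, Ifit3, Ifit3b, Rsad2, Cmpk2 and Ifi44. They were searched on both strands for the ISRE core GAAANNGAAA, in which N is any base and whose reverse complement is TTTCNNTTTC. The stretches below run 5′ to 3′ on the strand of the gene, from 200 to 71 bases before the start, and capitals mark each core match. For Ifit2 the stretch at the upstream start is shown.
Ifit1, chr19:34640689-34640818, plus strand: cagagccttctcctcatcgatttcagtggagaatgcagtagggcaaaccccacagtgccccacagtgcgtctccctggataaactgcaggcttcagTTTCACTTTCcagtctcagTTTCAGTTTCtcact
Ifit3, chr19:34583329-34583458, plus strand: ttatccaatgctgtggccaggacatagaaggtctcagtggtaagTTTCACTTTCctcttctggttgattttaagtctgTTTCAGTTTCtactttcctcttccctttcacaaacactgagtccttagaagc
Ifit3b, chr19:34607757-34607886, plus strand: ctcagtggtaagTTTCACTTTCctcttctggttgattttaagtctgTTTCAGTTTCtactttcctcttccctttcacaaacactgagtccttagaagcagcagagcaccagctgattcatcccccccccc
Rsad2, chr12:26456523-26456652, minus strand: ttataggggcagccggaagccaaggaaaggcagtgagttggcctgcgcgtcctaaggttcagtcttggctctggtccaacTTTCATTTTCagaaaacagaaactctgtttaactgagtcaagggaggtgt
Cmpk2, chr12:26469015-26469144, plus strand: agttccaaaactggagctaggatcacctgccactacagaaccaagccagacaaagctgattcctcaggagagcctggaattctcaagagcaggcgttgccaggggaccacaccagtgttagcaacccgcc
Ifi44, chr3:151749981-151750110, minus strand: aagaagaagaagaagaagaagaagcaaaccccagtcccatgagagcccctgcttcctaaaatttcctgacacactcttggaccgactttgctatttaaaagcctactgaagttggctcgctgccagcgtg
Ifit2, chr19:34550494-34550623, plus strand: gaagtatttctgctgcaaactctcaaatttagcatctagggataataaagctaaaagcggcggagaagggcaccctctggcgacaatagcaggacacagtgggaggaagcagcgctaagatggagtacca

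Ifit1, Ifit3 and Ifit3b each held 2 core matches, always TTTCACTTTC followed by TTTCAGTTTC. The first base of these lay 104 and 85 bases before the start in Ifit1, 156 and 122 in Ifit3, and 188 and 154 in Ifit3b. Rsad2 held a single match, TTTCATTTTC, 120 bases before its start. In all, 4 of the 7 members had a core match, against 3.99% of the 27025 genes in the promoter table. The extended form GAAANNGAAACT, which contains the core, was present in 3 of the 7 (Ifit1, Ifit3 and Ifit3b) and in 0.303% of all genes. Around both matches the stretch of Ifit3b repeats that of Ifit3 letter for letter, so the matches of these near copies are not separate finds.

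The windows of Ifit2, at both of its annotated starts, and those of Cmpk2 and Ifi44 held no core match, which says only that these letters are absent from 300 bases and not that the genes lack a response element elsewhere. The members with a match were all higher in shUSP9X, as were Cmpk2 and Ifi44 without a match, and Ifit2 was lower. With Ifit2 as the only lower member, the values cannot show whether the match goes with direction. The gamma-activated site TTCNNNGAA was found in 1 of the 7, in Ifit2 as TTCCTGGAA with its first base 241 bases before the upstream start, against 9.55% of all genes.

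The Ifit genes encode tetratricopeptide-repeat proteins and lie together on chromosome 19 (34550694 to 34650009 in GRCm38, 99.3 kb) in the order Ifit2, Ifit3, Ifit1bl1, Ifit3b, Ifit1bl2, Ifit1. Ifit1 (ENSMUSG00000034459, 34640871 to 34650009), which recognises the capped end of RNA lacking the methyl marks of host messengers, had 32 and 28 counts in the shCtrl libraries and 171 and 184 in the shUSP9X libraries. Its mean level was 1.81 ± 0.0527 CPM in shCtrl and 9.79 ± 1.61 CPM in shUSP9X (SD, n = 2), which is 5.41-fold higher, with a log2 fold change of 2.43. Both shUSP9X libraries stood well above the control pair, and replicate 2 was the higher of them in CPM.

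Ifit3 (ENSMUSG00000074896, 34583531 to 34588731), a binding partner that steadies IFIT1 on its target in human cells, had 13 and 8.83 estimated counts in the controls and 97.22 and 82.88 with USP9X knocked down, or 0.659 ± 0.128 and 4.92 ± 0.0134 CPM (log2 fold change 2.88). Ifit3b (ENSMUSG00000062488, 34607970 to 34613401), its near copy, had 0 and 2.17 estimated counts in the control pair and 24.78 and 28.12 in the knockdown pair. With only 2 rounded counts in the control group, the ratio for Ifit3b was 24.0 with a 95% exact counting interval of 6.32 to 203. That interval covers counting error only, and the fitted log2 fold change of 4.43 depends on the prior count, reaching 7.72 without shCtrl replicate 2 and 3.46 without shCtrl replicate 1.

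The annotated transcripts of Ifit3 and Ifit3b were 98.0% identical over 1697 aligned bases, and 31.65% of the 100-base windows of Ifit3 occurred unchanged in Ifit3b. The non-whole counts show that reads were divided between them by estimation, so the split is uncertain and their sum is the firmer value. Together they had 13 and 11 counts in the controls and 122 and 111 with USP9X knocked down, or 0.750 and 0.696 CPM against 6.17 and 6.59 CPM. The sum did not overlap between the groups. The assigned share of Ifit3b in it was 0 and 19.7% in shCtrl and 20.3% and 25.3% in shUSP9X.

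Ifit2 (ENSMUSG00000045932, 34550694 to 34576419), the member linked in other systems to translation control and apoptosis, moved the other way. It had 311 and 306 counts in the shCtrl libraries and 236 and 204 in the shUSP9X libraries. The mean went from 18.6 ± 1.00 to 12.0 ± 0.119 CPM, a fold of 0.645 and a log2 fold change of -0.63, with both shUSP9X libraries below both controls. This difference depended on the processing: with an offset for the GC content and length of each gene, the log2 fold change of Ifit2 was -0.02. The transcript used for Ifit2 had 3818 bases, and its last exon begins 22.4 kb downstream of the first base.

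Ifit2 made up 57.0% and 60.8% of the summed CPM of the 9 members in shCtrl and 10.4% and 10.2% in shUSP9X. Without it, the other 8 members summed to 13.6 and 12.5 CPM in shCtrl and to 102.9 and 107.1 CPM in shUSP9X. The 2 remaining genes of the cluster were rarely counted. Ifit1bl1 had 10 and 6 counts in the control pair and 19 and 20 in the knockdown pair (log2 fold change 1.14). It passed the filter on low counts through the shUSP9X libraries alone, so no test is attached to its values. Ifit1bl2 had 1 and 0 against 7 and 2 and was not tested. Ifit1 shares 3.29% of its 100-base windows with Ifit1bl2, but the estimated counts of both were whole in every library.

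**Figure D2:**
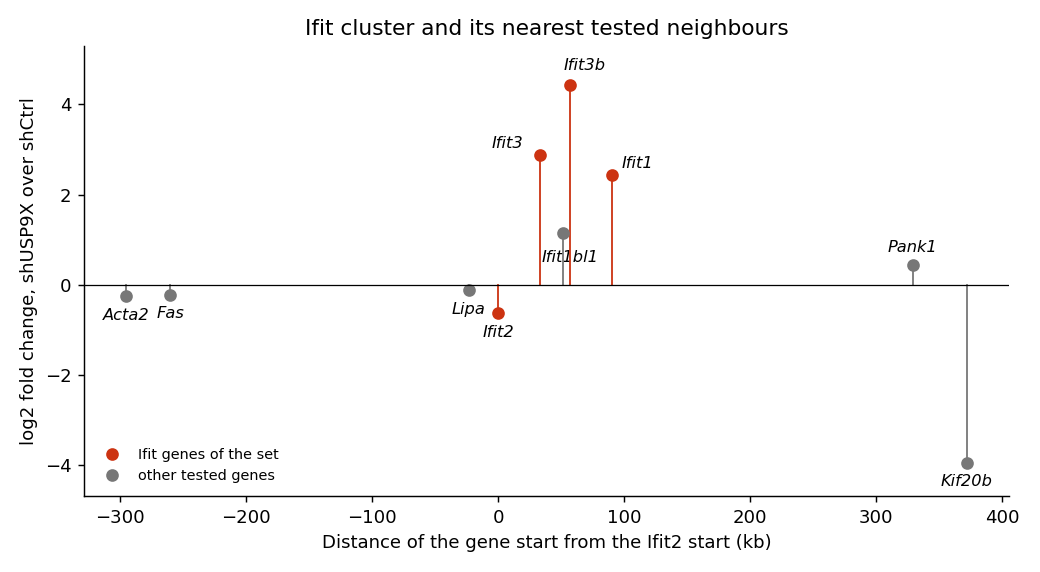
Log2 fold change of shUSP9X over shCtrl on the vertical axis against the distance of each gene start from the Ifit2 start in kb, with Ifit genes of the set in red and other tested genes in grey. Ifit3, Ifit3b and Ifit1 lie between 2.43 and 4.43, Ifit2 lies at -0.63, and the neighbours include Lipa at -0.12 and Kif20b at -3.96, while Rpp30, 1433.7 kb beyond the cluster, is not drawn.

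The genes beside the cluster were read in the same fit. Lipa, a lysosomal lipase 23.2 kb before the cluster, stood at -0.12 on the log2 scale (edgeR adjusted p = 0.175). Pank1, which starts the synthesis of coenzyme A, rose by 0.43 on the log2 scale (adjusted p = 0.00131) and Kif20b, a kinesin of cytokinesis 272.4 kb after the cluster, fell by 3.96 (adjusted p = 2.76e-23). Around all 5 member loci, the nearest 3 tested genes on each side gave 30 neighbours, of which 7 were higher and 10 lower, beside 33.8% and 33.6% of all genes, and their log2 fold changes had a median of -0.08.

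Mx1 (ENSMUSG00000000386), a nuclear GTPase that blocks influenza-like viruses in mice, lies on chromosome 16 (97447035 to 97462907, minus strand, 15 exons in the transcript used). C57BL/6 and many other laboratory strains carry a defective Mx1 allele, so counts of its messenger say nothing of a working protein. Mx1 was the least counted member in shUSP9X, with 20 and 12 counts there and 4 and 0 in the controls. The ratio was 7.24 with a 95% exact counting interval of 2.57 to 28.2. Its fitted log2 fold change of 2.78 changed to 6.94 without shCtrl replicate 1 and to 1.88 without shCtrl replicate 2. Mx1 and Mx2 transcripts were 84.29% identical where they aligned and shared 1.25% of the 100-base windows of Mx1.

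The dynamin-family relatives of Mx1, which shape membranes, moved in both directions. Dnm1l, the GTPase of mitochondrial fission, had 1995 and 1778 counts in the control pair and 754 and 652 in the knockdown pair (log2 fold change -1.57, edgeR adjusted p = 3.12e-18). Dnm1, which acts at synaptic vesicles, fell from 149 and 170 to 79 and 68 counts (-1.26, adjusted p = 1.34e-06). Dnm2, found in all tissues, rose by 0.33 on the log2 scale (adjusted p = 7.74e-07), and Dnm3 had at most 6 counts in any library.

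Rsad2 (ENSMUSG00000020641) and Cmpk2 (ENSMUSG00000020638) stand side by side on chromosome 12 and are transcribed away from each other, Rsad2 on the minus strand (26442746 to 26456452) and Cmpk2 on the plus strand (26469204 to 26479837). CMPK2 is a mitochondrial nucleotide kinase that feeds the CTP pool on which viperin acts. Rsad2 had 29 and 24 counts in the controls and 93 and 75 with USP9X knocked down. Its mean went from 1.60 ± 0.109 to 4.58 ± 0.179 CPM (SD, n = 2), which is 2.87-fold, the smallest ratio among the 8 members that were higher.

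Cmpk2 had 42 and 50 counts in the control pair and 481 and 401 in the knockdown pair. Its mean was 2.79 ± 0.523 CPM in shCtrl and 24.1 ± 0.378 CPM in shUSP9X, 8.62-fold higher. The log2 fold changes of the divergent pair were thus 1.52 for Rsad2 and 3.11 for Cmpk2, and in neither gene did the groups overlap. Of the kinase relatives, Cmpk1, the cytosolic UMP and CMP kinase, had 1795 and 1452 counts in the controls and 1819 and 1505 with USP9X knocked down (log2 fold change -0.11, edgeR adjusted p = 0.0981), and Dtymk, the thymidylate kinase, rose by 0.28 (adjusted p = 4.94e-05).

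Ifi44 (ENSMUSG00000028037), an interferon-induced protein of less settled function, lies on chromosome 3 (151730922 to 151749960, minus strand). It had 49 and 45 counts in the control pair and 341 and 307 in the knockdown pair. Its mean level was 2.84 ± 0.0141 CPM in shCtrl and 17.7 ± 0.686 CPM in shUSP9X, 6.25-fold higher, with a log2 fold change of 2.64 that became 3.56 with the GC content and length offset. The libraries of each group were close together. Its relative Ifi44l was at 0 in all 4 libraries, where 0 counts allow at most 3 counts, or 0.152 to 0.190 CPM depending on the library.

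Rtp4 (ENSMUSG00000033355), a chaperone that carries some G-protein-coupled receptors to the surface and has antiviral activity, lies on chromosome 16 (23520291 to 23614222, plus strand). Rtp4 had 66 and 39 counts in the controls and 806 and 714 with USP9X knocked down, the most of any member in shUSP9X. Its mean was 3.14 ± 0.947 CPM in shCtrl and 41.6 ± 1.13 CPM in shUSP9X, 13.3-fold higher (log2 fold change 3.71), and shCtrl replicate 1 was the higher control. Its relatives Rtp1, Rtp2 and Rtp3 were at 0 in every library. Masp1, whose annotation overlaps the Rtp4 locus on the opposite strand, went the other way, from 179 and 153 to 75 and 69 counts (log2 fold change -1.34, edgeR adjusted p = 2.70e-07). The counting is not stated to use strand.

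Compared per length, in FPKM (fragments scaled by transcript length and library size), the order of the members differed between the groups. In shCtrl, Ifit2 was highest at 5.32 ± 0.127 FPKM (SD, n = 2), followed by Rtp4 at 2.77 ± 1.01, Ifi44 at 0.984 ± 0.00990, Cmpk2 at 0.882 ± 0.169, Ifit1 at 0.687 ± 0.0170, Rsad2 at 0.426 ± 0.0276, Ifit3 at 0.378 ± 0.0764, Mx1 at 0.0475 ± 0.0672 and Ifit3b at 0.0350 ± 0.0495. Ifi44 and Cmpk2, Rsad2 and Ifit3, and Mx1 and Ifit3b overlapped as neighbours in that order, and the other neighbours did not.

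In shUSP9X the highest was Rtp4 at 36.2 ± 0.589 FPKM, then Cmpk2 at 7.44 ± 0.115, Ifi44 at 6.03 ± 0.235, Ifit1 at 3.65 ± 0.599, Ifit2 at 3.35 ± 0.0354, Ifit3 at 2.79 ± 0.000707, Rsad2 at 1.19 ± 0.0523, Ifit3b at 0.723 ± 0.146 and Mx1 at 0.374 ± 0.0806. Only Ifit1 and Ifit2 overlapped here. Ifit2 moved from first to the fifth place, and Rtp4 from the second place to first. The length behind the FPKM of Rtp4 worked out at 1101 to 1217 bases, shorter than the longest annotated transcript of 1859 bases, and that of Mx1 at 2224 to 2443 bases against 3385, so their FPKM depends on the transcripts the authors' estimate chose.

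**Figure D3:**
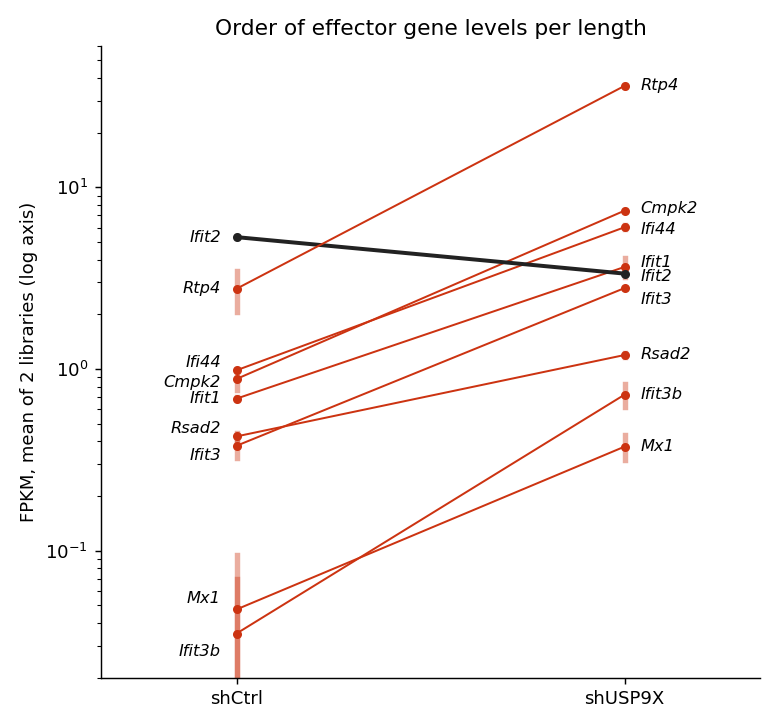
Mean FPKM of each effector gene over 2 libraries on a logarithmic vertical axis, in shCtrl on the left and shUSP9X on the right, with pale bars from the lower to the higher library (bars that meet the lower edge reach 0). Ifit2, in black, goes from 5.32 to 3.35 while the other 8 genes, in red, go up, with Rtp4 at 36.2 on the right.

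The members' profiles over the 4 libraries were compared with their median profile, as the Euclidean distance of centred log2 CPM values. Ifi44 lay closest at 0.126, then Ifit3 at 0.219 and Ifit1 at 0.320 and Cmpk2 at 0.608, while Rtp4, Rsad2, Ifit3b and Mx1 lay between 1.08 and 1.20 and Ifit2 at 3.20. Among genes outside the set with a mean log2 CPM of at least 2, the 5 nearest over the same 4 libraries were Ube2l6, Nqo1, Oasl2, Aldh3a1 and Irgm2, at distances of 0.133 to 0.223. With 2 groups of 2 libraries, such likeness mainly says that the sizes of the differences were alike. Ube2l6, the enzyme that conjugates ISG15, had 285 and 248 counts in the control pair and 1722 and 1584 in the knockdown pair.

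The other genes of the interferon pathway were read from 5 lists with 73 genes, of which 62 were tested. Of these, 41 were higher, 10 lower and 11 did not pass the test, beside 33.8% and 33.6% of all genes. Like the members, the lists were chosen with earlier results of these data known, so the count of 41 is a description. It includes Zbp1 and Dhx58, which passed the filter on low counts through the shUSP9X libraries alone. The median log2 fold change was 0.78 over these 62 genes, -0.0005 over all genes tested, and 2.78 over the 9 members (2.64 with Ifit3b and Mx1 at the lower bounds of their counting intervals). No interferon gene on the list, Ifnb1, Ifna4, Ifne, Ifnk, Ifnl2, Ifnl3 and Ifng, had a count in any library. The receptors and kinases gave 1 higher and 3 lower of 8 tested. Ifngr2, a chain of the interferon gamma receptor, rose by 0.51 on the log2 scale (edgeR adjusted p = 2.40e-08). Ifnar2, of the type I receptor, stood at 0.03 (adjusted p = 0.777), and the kinases Jak2 and Jak1 fell by 1.29 and 0.32 (adjusted p = 1.41e-16 and 4.23e-09). The third gene that fell was Ifnar1, the other type I receptor chain, by 0.23.

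Of the transcription factors, 5 of 8 tested were higher and none lower. Irf7, which amplifies interferon responses, had 185 and 151 counts in the controls and 3373 and 2818 with USP9X knocked down (log2 fold change 4.06, edgeR adjusted p = 3.98e-25). Irf9, the DNA-binding part of the complex that recognises ISREs, went from 217 and 232 to 991 and 829 counts (1.87, adjusted p = 1.95e-15). Stat2 rose by 1.87 and Irf2 by 0.36, whereas Irf1 and Irf3 had log2 fold changes of 0.08 and 0.07 (adjusted p = 0.198 and 0.439). In both of these the shUSP9X libraries lay above the controls all the same. The 5 immune cell markers that passed the filter through shUSP9X alone, given above, were higher in the same libraries as these genes.

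Among 11 nucleic acid sensors and adaptors, 6 were higher and 1 lower. Zbp1, a sensor of Z-form nucleic acid, went from 3 and 4 to 140 and 122 counts (log2 fold change 5.04). Dhx58, a regulator of RIG-I-like receptors, went from 18 and 7 to 157 and 117 (3.30). Both are among the 6 but passed the filter on low counts through the shUSP9X libraries alone, so no test is attached to their values. Tbk1, the kinase that activates IRF3, fell by 0.42 (edgeR adjusted p = 7.93e-07), and its relative Ikbke stood at -0.26 (adjusted p = 0.137).

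Of the other antiviral effectors, 27 of 30 tested were higher and 3 lower. Oas2 and Oas3, which make a short oligoadenylate signal on sensing double-stranded RNA, had log2 fold changes of 4.23 and 3.55 (edgeR adjusted p = 4.26e-18 and 5.55e-20). Oas2 went from 38 and 23 counts to 642 and 622. Among those that fell, Samd9l, a restriction factor of poxviruses, went from 396 and 331 to 71 and 64 counts (-2.57, adjusted p = 2.25e-14). Eif2ak2, which encodes the kinase PKR, fell by 0.56.

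The 5 feedback inhibitors were split. Usp18, which removes ISG15 and blocks the type I receptor, rose from 24 and 39 to 502 and 447 counts (log2 fold change 3.76, edgeR adjusted p = 2.85e-16), and Socs1 by 0.89 (adjusted p = 0.0290). Socs3, Pias1 and the phosphatase Ptpn2 fell by 0.20, 0.31 and 0.42 (adjusted p = 0.00406, 0.00317 and 8.33e-05).

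**Figure D4:**
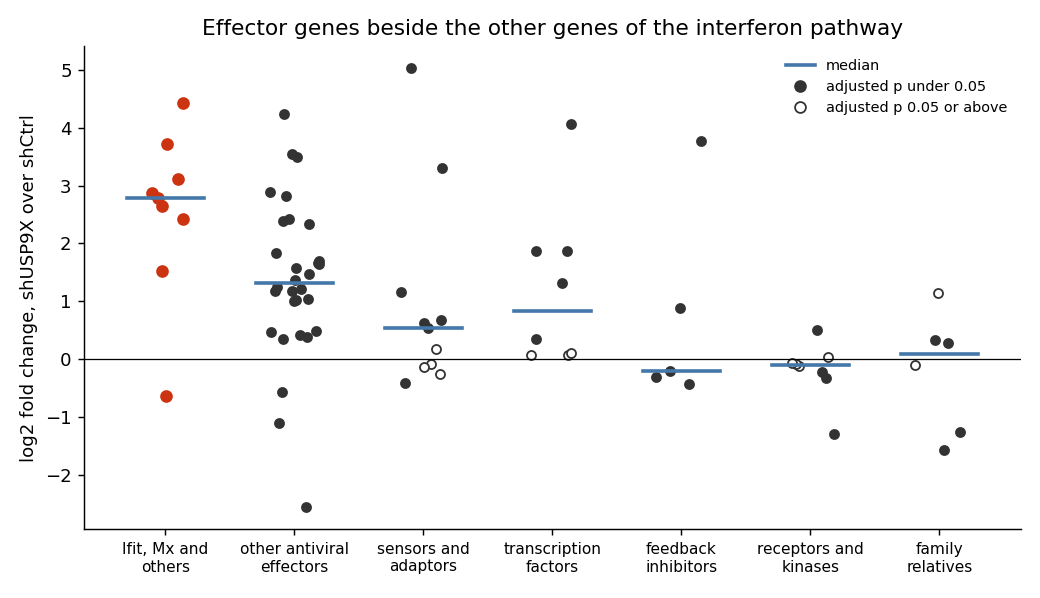
Log2 fold change of shUSP9X over shCtrl for the 9 effector genes in red, the tested genes of the 5 pathway lists and the family relatives in black, with blue lines at the medians and open symbols for an adjusted p of 0.05 or above. The effectors have a median of 2.78, the other antiviral effectors 1.31, and the receptors and kinases -0.11.

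Around the remaining loci, the neighbours that passed the test went in both directions. Neighbours are the nearest tested genes, so some lie far off. Among those that passed, Rps7 lay 2151.0 kb from Rsad2 and Cmpk2, and Prkacb 4917.9 kb from Ifi44. On the sides of Rsad2 and Cmpk2, Rrm2 and Rps7 rose by 0.47 and 0.38 on the log2 scale (edgeR adjusted p = 1.65e-10 and 8.39e-11) and Kidins220 and Id2 fell by 0.76 and 0.53 (adjusted p = 4.48e-13 and 3.11e-07). Around Ifi44, Gipc2 rose by 0.46, and Dnajb4, Ttll7 and Prkacb fell by 0.93, 0.72 and 0.21. Around Rtp4, Bcl6 rose by 0.33, and Lpp, Eif4a2 and St6gal1 fell by 1.39, 0.66 and 0.43. Around Mx1, Get1 and Hmgn1 rose by 0.78 and 0.14, and Brwd1 fell by 1.14.

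**Figure D5:**
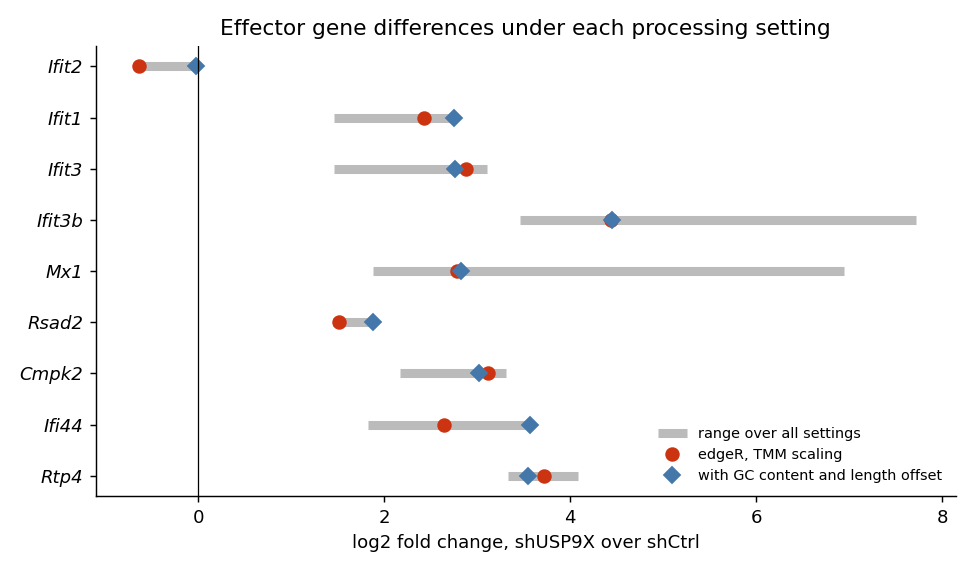
Log2 fold change of shUSP9X over shCtrl for each effector gene on the horizontal axis, with red circles for edgeR with TMM scaling, blue diamonds for the fit with a GC content and length offset, and grey bars for the range over all settings run for that gene. Ifit2 moves from -0.63 to -0.02 with the offset and Ifi44 from 2.64 to 3.56, and the widest bars belong to Ifit3b and Mx1.

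The sizes of the members' differences varied with the processing. Ifit3b, Mx1 and Rsad2 did not reach the minimum of 1 FPKM in the mean over all 4 libraries and have no value in the 2 fits on FPKM. The lowest values over the fits came from log2(FPKM + 1) for Ifit1, Ifit3, Cmpk2, Ifi44 and Rtp4, a scale that understates the change of genes near 1 FPKM. The values of Ifit2 lay between -0.68 and -0.02.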

How the data were processed

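Total RNA of 4 ID8 libraries was poly(A)-selected and sequenced. The submitters' processing notes list fastp 0.18.0, Bowtie2 2.2.8, HISAT2, StringTie 1.3.1 and RSEM, and the study's methods give GRCm38 as the genome build. The authors deposited a table of 22063 genes with an estimated count (expected counts, not always whole) and an FPKM value for each library.

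Expected counts were rounded and tested with edgeR 4.0.16 in R 4.3.3 (TMM scaling, filterByExpr, quasi-likelihood, two-sided, Benjamini-Hochberg over 11448 genes). No other unit entered the tests, except in alternatives with limma 3.58.1 on log2(FPKM + 1) and log2(FPKM + 0.1). DESeq2 1.42.0, other scalings and filters, a GC content and length offset, a replicate block and leaving out each library were also tried. The common biological coefficient of variation was 0.0352, and p-values measure only the spread between these libraries. Counting intervals are exact (Clopper-Pearson) and cover counting error only. The code was tested on simulated data.

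Members and lists were chosen with earlier results of these data known. Named were Usp9x, the members, their family relatives, the 2 highest and 2 lowest tested genes of each pathway list, every gene of lists of 5 or fewer, neighbours past the threshold and the 5 genes nearest in profile. A few further names were picked with their values in view. Gene positions are from GENCODE M21 (GRCm38), matched by Ensembl identifier, and promoters from RefSeq. Cgas was matched through a synonym, and Oas1b had no row used. Some genes that this rule would name are not reported here.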

Additional observations from a re-analysis of the deposited data

How the results depend on the processing

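The count of changed genes (7707) and the pathway genes that were lower (10) fell to 3376 and 3 when a call needed a 1.5-fold difference and p under 0.05 before adjustment, a rule that leaves out small differences by construction. The median over the members, 2.78 with edgeR, was 1.64 on log2(FPKM + 1) and 2.55 on log2(FPKM + 0.1), where only 6 members passed the minimum of 1 FPKM in the mean over the libraries. Pathway genes that were higher (41) lay between 33 and 43 over all alternatives. Changed neighbours (17) lay between 16 and 20, but numbered 8 under the 1.5-fold rule, a setting added after seeing the data. Replicate numbers are shared by the groups, but nothing says what they mark, and the deviations of same-numbered libraries correlated at -0.0453 over genes. With the replicate block 7665 genes were called, and 41 pathway genes were higher and 10 lower. The move of Ifit2 from -0.63 to -0.02, or to -0.02 with the block as well, under the GC content and length offset is given beside its value above, and the cause was not tested. With 2 libraries a group and at most 4 control counts, the sizes for Ifit3b and Mx1 are limited by depth.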
